A study of Drosophila melanogaster with 4 samples.

Results

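The euchromatic sites of chromosome arm 3L are the HP2-enriched regions, called clusters here, whose midpoint lies between positions 200001 and 22543557 of 3L on FlyBase r5. These limits leave out the telomere-side 200 kb and the centromere-side 2 Mb of the assembled arm, and enclose 22.34 Mb. The rule uses position only and no enrichment value, and the word euchromatic was not checked against chromatin marks. It found 658 of the 4728 clusters of HP2 ChIP replicate 1, 510 of the 4163 clusters of replicate 2, and 890 of the 7037 clusters in the authors' combined list of the replicate set. The study mapped HP2 by chromatin immunoprecipitation and sequencing (ChIP-seq) with antibody Ab2-90 in nuclei of heads from mixed adult Drosophila melanogaster of the wild-type strain Oregon-R. The flies were grown in population cages, and a head holds many cell types, so each list is an average over them. There were 2 ChIP samples and 2 input samples, 1 input for each ChIP replicate, and inputs enter only through the authors' calls. The labels do not state whether each replicate had its own collection of flies, and differences between replicates can therefore be technical.

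HP2 is a partner of heterochromatin protein 1 (HP1), the protein that reads methylated lysine 9 of histone H3, and mutations in its gene, Su(var)2-HP2, weaken the silencing of genes placed next to heterochromatin. HP2 is best known from pericentric chromatin and the small chromosome 4, where HP1 spreads over long domains. HP1 also occupies scattered sites on the gene-rich arms. Gene, exon and repeat annotation on FlyBase r5 was not used here, and the sites are therefore given by position alone.

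Each replicate dotted 3L with short clusters, many of them close to another. A neighbour lay within 5 kb for 46.0% of the clusters of replicate 1 and 40.8% of those of replicate 2. Clusters numbered 29.4 per Mb in replicate 1 and 22.8 per Mb in replicate 2, or 26.1 ± 4.68 per Mb on average (SD, n = 2). They held 6.34% of the region's bases in replicate 1 and 4.78% in replicate 2, on average 5.56% ± 1.10 (SD, n = 2). Those bases amounted to 1416 kb and 1067 kb. The combined list was larger, at 39.8 clusters per Mb and 8.18% of the bases. The lists hold no read counts, so sequencing depth is unknown, and a base outside the clusters is only one that was not called.

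Cluster lengths were narrowly spread around 2 kb. Clusters of replicate 1 had a median of 2059 bp, with quartiles at 1878 and 2243 bp, and those of replicate 2 had a median of 2052 bp, with quartiles at 1845 and 2206 bp. Counted in steps of 100 bp, lengths from 2000 to 2099 bp were the most frequent in all 3 lists, with 125 clusters in replicate 1, 89 in replicate 2 and 115 in the combined list. Just over 50% of each replicate's clusters (340, or 51.7%, and 271, or 53.1%) measured 1900 to 2299 bp. A smaller peak stood at the short end of each list. From 1300 to 1399 bp there were 46 clusters in replicate 1 and 33 in replicate 2, and from 1000 to 1099 bp there were 53 in the combined list. Between the peaks the count dropped to 20 clusters at 1600 to 1699 bp in replicate 1 and to 12 at 1700 to 1799 bp in replicate 2. Long clusters were few. Lengths of 3000 bp or more occurred in 54 clusters of replicate 1 (8.21%) and 30 of replicate 2 (5.88%), and the longest measured 6362 and 5296 bp.

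Spacing was far more variable than length. Neighbouring clusters of replicate 1 lay a median of 14809 bp apart, with quartiles at 4608 and 38767 bp. Those of replicate 2 lay 20122 bp apart, with quartiles at 5334 and 52019 bp. Gaps under 5 kb made up 26.5% of the 657 gaps of replicate 1 and 22.8% of the 509 gaps of replicate 2. At the other end, gaps of at least 50 kb numbered 117 in replicate 1 and 131 in replicate 2, and they took up 57.9% and 68.4% of the region. The longest gap reached 433568 bp in replicate 1. In replicate 2 it reached 408261 bp. The same arm thus held both close neighbours and long stretches with no call.

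**Figure D1:**
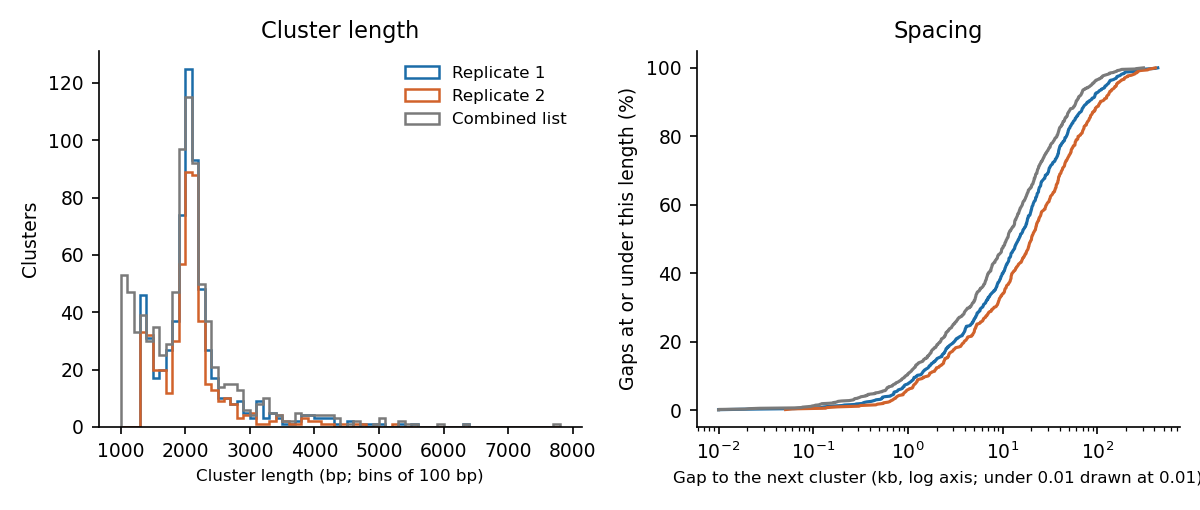
Left, number of euchromatic 3L clusters by length in bins of 100 bp; right, cumulative share of gaps between neighbouring clusters by length in kb on a log axis, for replicate 1, replicate 2 and the combined list. Lengths peak at 2000 to 2099 bp in each list, with a smaller peak in the first bin that holds any cluster. That bin is where each list is cut off at its shortest length. Gaps run from under 1 kb to over 300 kb.

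Along the arm, at the scale of 1 Mb, the density of clusters rose and fell by a factor of little more than 2, with no long block of binding. Over 22 bins of 1 Mb counted from position 200001, replicate 1 held 17 to 41 clusters per bin (median 31.5) and replicate 2 held 14 to 33 (median 22). Bins were 3.90% to 8.98% covered in replicate 1 and 2.91% to 6.81% covered in replicate 2. Counts per bin followed each other in both replicates (Spearman rho 0.88 over the 22 bins, a description of bins that share both libraries). Replicate 1 held more clusters in 21 of the 22 bins.

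The fullest and the sparsest megabases can be named. The bin from 20200001 to 21200000 had 40 clusters in replicate 1 and 31 in replicate 2 and coverages of 8.98% and 6.81%. That from 2200001 to 3200000 held 41 and 33 clusters and was 8.72% and 6.75% covered. Both lie toward the ends of the region. Sparse bins occurred at several places inside it. From 13200001 to 14200000 there were 17 clusters in replicate 1 and 14 in replicate 2, covering 3.90% and 3.17%, and from 14200001 to 15200000 there were 17 and 15, covering 4.23% and 3.23%. The bin from 4200001 to 5200000 held 20 and 14 clusters, covering 4.16% and 2.91%. Medians over bins were 6.71% in replicate 1 and 4.60% in replicate 2. The last full bins, starting at 19200001, 20200001 and 21200001, all lay above them. They were 7.57%, 8.98% and 6.84% covered in replicate 1 and 5.74%, 6.81% and 5.45% in replicate 2. Coverage did not rise steadily toward the centromere side, since the bin from 18200001 to 19200000 had 4.20% and 3.93%.

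**Figure D2:**
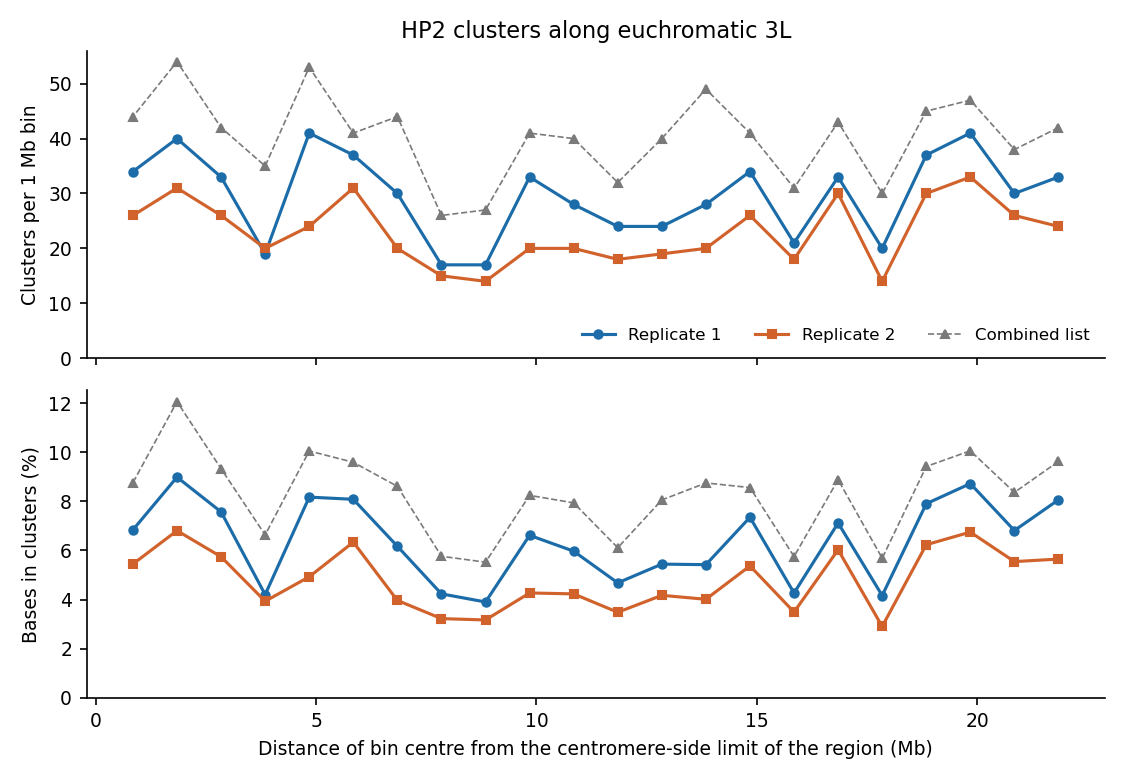
Clusters per 1 Mb bin (top) and share of bases in clusters (bottom) along euchromatic 3L, against the distance of the bin centre from the centromere-side limit in Mb, for both replicates and the combined list. Replicate 1 lies above replicate 2 in counts in 21 of 22 bins, and sparse bins occur at several places, with a minimum of 17 clusters in replicate 1 and 14 in replicate 2.

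Recurrence of these sites was high in one direction and lower in the other. A cluster was called recurrent when the other replicate's clusters held 50% or more of its length. By that rule 477 of the 658 clusters of replicate 1 were recurrent, 72.5% (95% Wilson interval 69.0% to 75.8%, counting error only). In replicate 2, 484 of the 510 clusters were recurrent, 94.9% (92.6% to 96.5%). Over all clusters of each list the shares were 74.3% in replicate 1 and 83.5% in replicate 2, so replicate 1 on 3L was near its whole list and replicate 2 above it. The numbers of recurrent clusters were close to each other, and replicate 1 held 148 more clusters on 3L in all. Partial overlap was rare. Only 4 clusters of replicate 1 and 1 of replicate 2 touched the other list with less than 50% of their bases, while 177 and 25 did not touch it at all.

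Counted as loci, with touching clusters of both replicates joined, the region held 682 sites. Of these 481 (70.5%) were called in both replicates, 176 (25.8%) in replicate 1 alone and 25 (3.67%) in replicate 2 alone. By bases, 1005 kb were called in both replicates, equal to 70.9% of replicate 1, 94.1% of replicate 2 and 67.9% of their union.

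Where a site recurred, its borders often lay close together in both replicates. A one-to-one match with at least 50% overlap of both clusters was found for 475 pairs. The median offset was 53 bp at their starts and 50 bp at their ends, and in 244 pairs (51.4%) both borders lay within 100 bp. The 95th percentile of the offset was 535 bp at starts and 532 bp at ends. The match rule itself limits these offsets. The cluster of replicate 1 was the longer in 362 pairs, that of replicate 2 in 111, and 2 pairs were of equal length, with medians of 2124 and 2072 bp. Scores, which the authors gave on a scale not stated in the sources used here and which describe clusters within a list only, ran in parallel (Pearson r 0.89, Spearman rho 0.85 across 475 pairs of 1 genome, as a description). Matched clusters had a median score of 0.783 in replicate 1 and 0.624 in replicate 2.

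Sites with low scores or short length in replicate 1 were the ones that often failed to recur. With clusters ranked by score and cut into 5 equal groups, 43.2% of the lowest group of replicate 1 recurred (95% Wilson interval 35.0% to 51.7%), then 51.1%, 70.5%, 97.7% and 100%, the last being 132 of 132 clusters (97.2% to 100%). Replicate 2 had no such slope at its low end, with 94.1% in the lowest group (87.8% to 97.3%), then 91.2%, 91.2%, 98.0% and 100%. Length gave a similar picture. Clusters of 1302 to 1774 bp in replicate 1 recurred in 28.8% of cases (21.8% to 37.0%), and those of 2117 to 2329 bp in 96.9%. In replicate 2, the shortest group, of 1305 to 1683 bp, recurred in 78.4% of cases (69.5% to 85.3%), and each longer group in at least 98.0%. Score and length are not separate evidence, since longer clusters scored higher across clusters (Spearman rho 0.81 in replicate 1 and 0.78 in replicate 2, as descriptions).

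**Figure D3:**
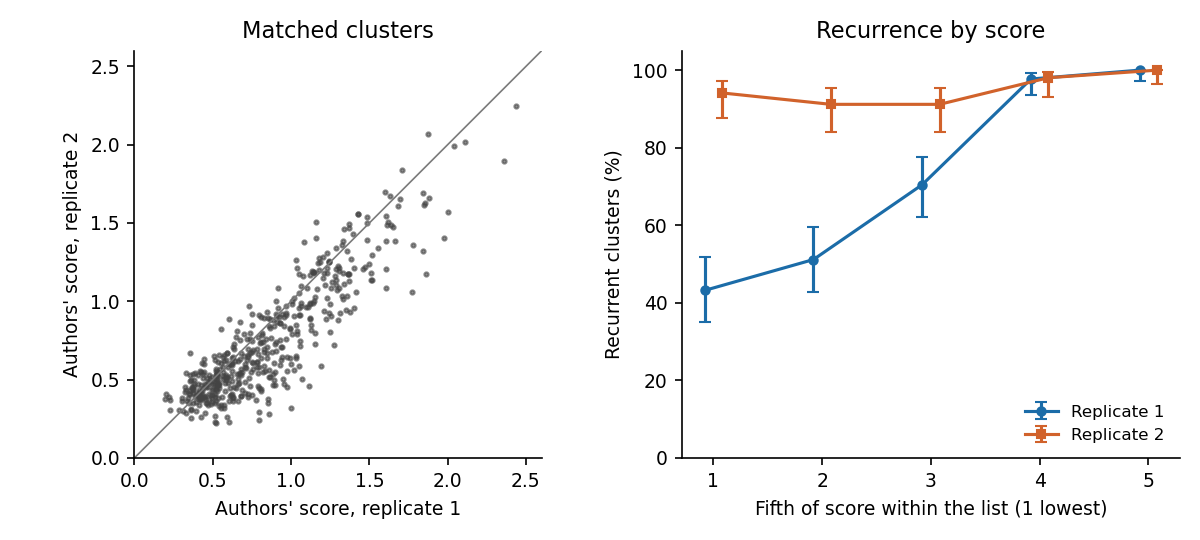
Left, the authors' score of each of the 475 matched clusters in replicate 1 and replicate 2, with the line of equality; right, share of recurrent clusters in 5 equal groups by score within each list, with 95% Wilson intervals. Recurrence in replicate 1 climbs from 43.2% in the lowest group to 100% in the highest, and stays at 91.2% or more in replicate 2.

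Clusters called in 1 replicate alone had lower median scores and shorter median lengths than the recurrent clusters of their list. Untouched clusters of replicate 1 had a median score of 0.451 and a median length of 1730 bp, against 0.780 and 2125 bp for recurrent ones. In replicate 2 the untouched clusters had medians of 0.494 and 1455 bp, against 0.621 and 2068 bp. The highest untouched score in replicate 1 was 0.849, at rank 208 of the 658 scores, in a cluster from 270754 to 272861. It was followed by clusters from 9123329 to 9124728 (0.839), from 21835712 to 21837809 (0.767), from 17555809 to 17558028 (0.721) and from 12426640 to 12428674 (0.685). In replicate 2 the highest, 0.841 at rank 163 of 510, belonged to a cluster from 20475264 to 20477306. The next ran from 22459992 to 22461304 (0.800), from 2222737 to 2224112 (0.639), from 20763795 to 20765292 (0.597) and from 19089865 to 19091544 (0.587). By definition of these maxima, any cluster on euchromatic 3L that scored above that of its own list touched a cluster of the other replicate.

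Most clusters called in 1 replicate alone lay at least 1 kb from the other replicate's clusters. The distance from an untouched cluster of replicate 1 to the nearest cluster of replicate 2 had a median of 9744 bp. Of the 177, 23 lay within 1 kb and 62 within 5 kb. For the 25 untouched clusters of replicate 2 the median was 5048 bp, with 5 within 1 kb and 12 within 5 kb. The combined list held at least 50% of 171 of the 177 (96.6%) and of 23 of the 25 (92.0%). For all other clusters of each replicate, recurrent or partly overlapping, the share was 100%. The combined list is that of the same replicate set, so it is not separate evidence for these clusters. In replicate 2, 6 of the 26 clusters that were not recurrent fell in a single megabase, from 18200001 to 19200000, where 14 of 20 clusters recurred (70.0%) and where alone replicate 2 held more clusters than replicate 1 (20 against 19). All 6 measured 1326 to 1680 bp and scored 0.304 to 0.587.

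Recurrence changed little with crowding in replicate 2. Clusters with a neighbour within 5 kb recurred in 94.7% of 208 cases, and those at least 20 kb from any neighbour in 94.5% of 127. In replicate 1 the corresponding shares were 75.6% of 303 (95% Wilson interval 70.4% to 80.1%) and 68.6% of 121 (59.9% to 76.2%). With the nearest neighbour at 5 to 20 kb, 70.5% of 234 recurred in replicate 1 and 95.4% of 175 in replicate 2. No test of these differences was run, and the intervals treat neighbouring clusters as separate units.

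The highest-scoring matched cluster measured 4533 bp, from 19992222 to 19996754. It scored 2.44 in replicate 1 and 2.24 in replicate 2 and ranked first among matched clusters in both. The second in replicate 1 ran from 544665 to 547067 and scored 2.36 and 1.90. The cluster at rank 3 in both replicates ran from 17521841 to 17524272 and scored 2.11 and 2.02. These and the next, from 14042155 to 14047479 with 2.04 and 1.99, were among the highest 5 in both replicates. The remaining 6 of the 10 highest scorers measured 2139 to 2952 bp, scored 1.86 to 2.00 in replicate 1 and kept ranks 2 to 75 in replicate 2. The lowest of those ranks belonged to the cluster from 4975284 to 4977575, with 1.86 and 1.18, and the highest to that from 2585469 to 2588420, with 1.87 and 2.07. The 10 highest scorers of each replicate had 6 pairs in common, and the 20 highest had 13.

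The 10 longest matched clusters measured 4250 to 5531 bp in replicate 1, and only 2 of them were also among the 10 highest scorers. The longest ran from 681186 to 686716. Replicate 2 divided it into clusters of 1893 and 3039 bp, which together covered 89.2% of it. The second, from 14042155 to 14047479, measured 5325 bp in replicate 1 and 5296 bp in replicate 2. The one at rank 3, from 539250 to 544151 (4902 and 4416 bp), ended 513 bp before the second-highest scorer, and the combined list called the pair as its longest cluster of 7717 bp. Others kept their borders, as did those from 15133835 to 15138547 (4713 and 4657 bp) and from 19992222 to 19996754 (4533 and 4711 bp). The cluster from 210432 to 214721 measured 4290 and 4246 bp, and that from 13994170 to 13998530 measured 4361 and 3803 bp. The other 3 were shorter in replicate 2 by over 1 kb. They ran from 16042099 to 16046969 (4871 and 3540 bp), from 16703507 to 16707756 (4250 and 2689 bp) and from 1625985 to 1630235 (4251 and 2127 bp). Splitting was rare over the whole region: 4 clusters of replicate 1 met 2 clusters of replicate 2 each, and none the other way round. The longest cluster of replicate 1, 6362 bp from 14747862 to 14754223 with a score of 0.658, was one of these, and replicate 2 held clusters of 2176 and 2001 bp in it.

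Local crowds were small and partly recurrent. A crowd was defined as a run of at least 5 clusters of 1 list with no gap over 10 kb. Replicate 1 had 11 crowds with 64 of its clusters (9.73%), and replicate 2 had 4 with 22 (4.31%). They spanned 1.60% and 0.602% of the region. Of the 11 crowds of replicate 1, 3 met a crowd of replicate 2, and of the 4 crowds of replicate 2, 3 met one of replicate 1. Single clusters in crowds recurred about as often as the others. In replicate 1, 45 of the 64 recurred (70.3%), against 72.7% outside crowds. In replicate 2 it was 95.5% of the 22, against 94.9% outside.

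The crowd with most clusters in replicate 1 spanned 57.5 kb from 3034179 to 3091648. It held 8 clusters in replicate 1, of which 7 recurred, and 7 clusters in replicate 2, and was 30.5% and 25.7% covered. A second crowd of 8, from 12488986 to 12531421, recurred less, with 5 clusters in both. The crowd from 21508139 to 21533887 was the most compact of the leading 5. All 6 of its clusters recurred, and it was 50.6% covered in replicate 1 and 50.4% in replicate 2. That from 19889074 to 19933037 held 6 clusters, 5 of them recurrent, and their median score was 1.02. By contrast, the crowd from 17583132 to 17615991 had 6 clusters in replicate 1 but 2 in replicate 2, and its median score in replicate 1 was 0.384. Crowding by this rule in both replicates occurred at 3 places, which were the crowds starting at 3034179, 19889074 and 21508139 in replicate 1.

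Windows of 200 kb, moved in steps of 10 kb, gave the same leading crowd. Median coverage over all windows was 6.16% in replicate 1 and 4.38% in replicate 2. Of the 2215 overlapping windows, 90 were empty in replicate 1, 114 in replicate 2 and 67 in both. The densest, from 3030001 to 3230000, was 20.7% and 17.0% covered, with 18 clusters in replicate 1 and 16 in replicate 2. In that window 16 of the 18 and all 16 recurred, and scores reached 1.69 and 1.66. The window ranked second, from 20340001 to 20540000, was 17.0% and 14.8% covered, with 15 and 13 clusters, 12 recurrent in each. The window at rank 3 lay at the telomere-side limit, from 200001 to 400000, at 17.0% and 11.7%, with 14 and 10 clusters, 10 recurrent in each. The order of these 2 rests on replicate 2, since both had 17.0% in replicate 1. Rank 3 itself rests on replicate 1, since in replicate 2 the windows from 19800001 (12.6%) and from 15910001 (12.1%) were covered more than that from 200001.

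**Figure D4:**
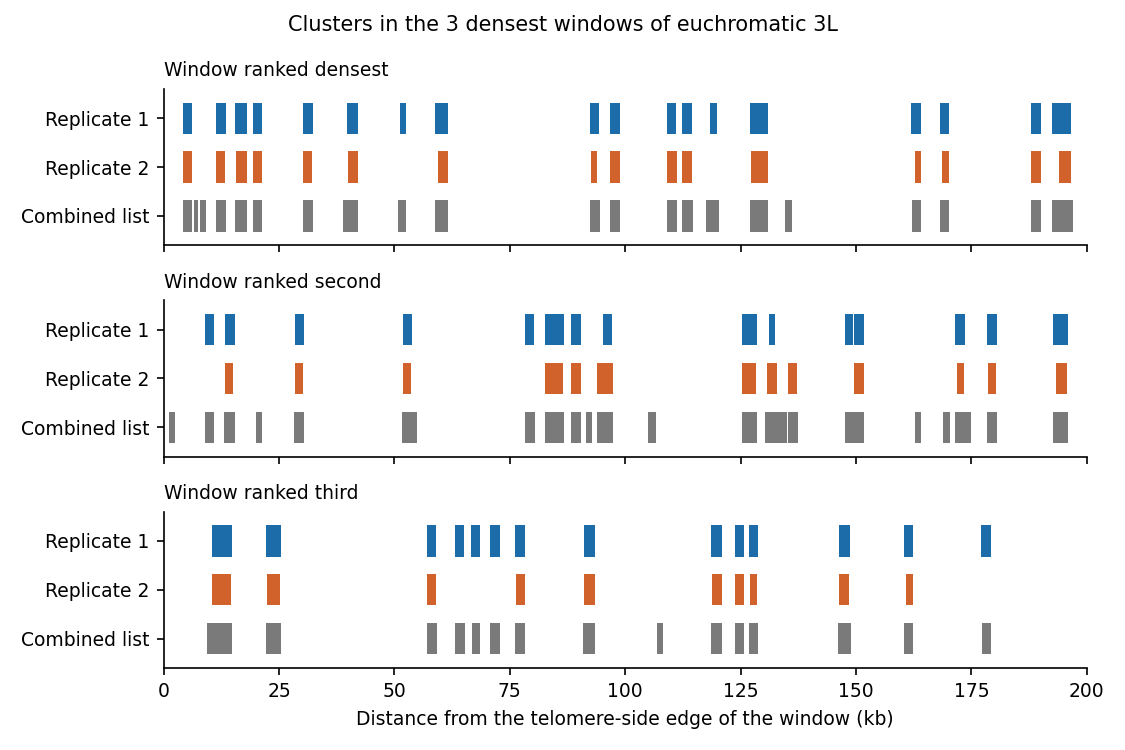
Clusters in the 3 densest, non-overlapping 200 kb windows of euchromatic 3L, drawn to scale by distance from the telomere-side edge of the window in kb, for replicate 1, replicate 2 and the combined list. The densest window holds 18 clusters in replicate 1 and 16 in replicate 2 at nearly the same places, and most of its bases are outside clusters.

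Stretches without any call took up more of 3L than the clusters did. Between the loci of the union of both replicates there were 50 stretches of at least 100 kb with no cluster of either. They added up to 8042 kb, or 36.0% of the region, and 7 of them measured at least 200 kb. The longest, 408 kb, ran from 13486201 to 13894461, inside the sparse bin that starts at 13200001. The next were 340 kb from 15153214 to 15493080, 287 kb from 6256343 to 6542852, 283 kb from 18180103 to 18462682 and 252 kb from 1971139 to 2222736. Combined clusters that touched neither replicate were missing from 21 of the 50, among them those from 18180103 and from 1971139. The other 29 held 69 such clusters, or 31.5% of the 219 in the region, and their median score of 0.341 was that of the 219 as well.

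Single sites stood in the middle of such stretches. At 5 loci both neighbouring gaps measured at least 100 kb, and 2 of these were called in both replicates. The first was the high scorer from 4975284 to 4977575, which had no neighbour in either replicate for 149 kb on its telomere side and 199 kb on its centromere side. The combined list held 1 further cluster in the second of these gaps, with a score of 0.232. The second, from 14401735 to 14405781, measured 4047 bp in replicate 1 and 2791 bp in replicate 2. It stood between gaps of 133 and 124 kb. The other 3 were called in 1 replicate and measured 1341 to 1376 bp.

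The combined list was more than a sum of the replicates. Of its 890 clusters on euchromatic 3L, 480 (53.9%) touched both replicates, 168 (18.9%) replicate 1 only, 23 (2.58%) replicate 2 only and 219 (24.6%) neither. Over the whole combined list 31.4% touched neither. The shortest cluster of the replicate lists measured 1301 bp, and 120 of those 219 (54.8%) were shorter than that, against 13 of the 671 others (1.94%). Clusters that touched neither replicate had a median length of 1241 bp and lay a median of 7933 bp from the nearest cluster of either replicate.

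For comparison, the euchromatic parts of 2L, 3R and X were cut by the same limits, with no dense stretch left out. In each replicate, 3L and 3R had lower shares of long clusters and of clusters in crowds than 2L and X. Coverage was 5.56% ± 1.10 on 3L, against 5.56% ± 0.89 on 2L, 5.09% ± 0.97 on 3R and 6.90% ± 1.59 on X (SD, n = 2 each). The difference from 2L was 0.16 points in replicate 1 and -0.15 in replicate 2. From 3R it was 0.56 and 0.37 points, and from X -1.69 and -1.004 points. On 3L the means per Mb were 26.1 clusters, against 23.7 on 2L, 23.8 on 3R and 31.3 on X. The exact two-sided sign-flip permutation over 2 replicates cannot go below p = 0.5, which it gave for 3R and X in coverage (p = 1 for 2L), so no difference between arms can pass a threshold.

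Median lengths were near 2 kb on each arm: the means over both replicates were 2055 bp on 3L, against 2088 bp on 2L, 2048 bp on 3R and 2041 bp on X. Clusters of 3000 bp or more made up 7.04% ± 1.64 on 3L, against 15.0% ± 0.74 on 2L, 7.13% ± 1.66 on 3R and 11.4% ± 2.30 on X (SD, n = 2 each). Crowds held 9.73% and 4.31% of the clusters of replicates 1 and 2 on 3L. The shares were 23.6% and 15.3% on 2L, 8.45% and 4.28% on 3R, and 23.1% and 10.9% on X. The largest crowds of replicates 1 and 2 held 8 and 6 clusters on 3L and 8 and 7 on 3R. They held 22 and 22 on 2L, and 11 and 9 on X. Shares without the dense stretches of 2L and X were not computed. The densest window averaged 18.8% covered on 3L, against 54.0% on 2L, where it is a block of closely set clusters, 16.6% on 3R and 29.5% on X. Recurrence in replicate 1 was 72.5% on 3L, against 75.1% (95% Wilson interval 71.3% to 78.5%) on 2L, 72.3% (68.8% to 75.5%) on 3R and 67.2% (63.7% to 70.5%) on X. In replicate 2 it was 94.9% on 3L, against 93.5%, 93.1% and 91.0% on 2L, 3R and X. Intervals cover counting error over clusters of 1 genome, and no test of these shares was run.

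**Figure D5:**
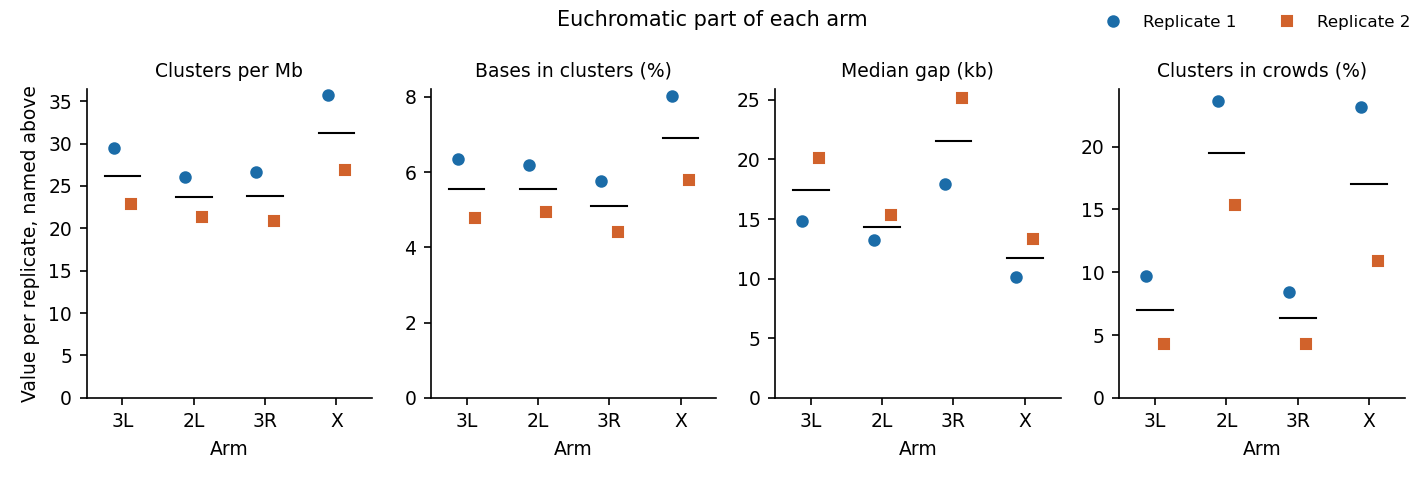
Clusters per Mb, share of bases in clusters, median gap in kb and share of clusters in crowds for the euchromatic part of 3L, 2L, 3R and X; points are replicate 1 and replicate 2 and the black bar is their mean. On 3L and 3R the share of clusters in crowds stays under 10% in both replicates, and on 2L and X it lies above 10%.

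A cluster lay across the telomere-side limit of the region and none across the centromere-side one. The last cluster outside the telomere-side limit ran from 198204 to 200450 in replicate 1, with its midpoint 0.674 kb beyond the limit and a score of 0.826, and from 198471 to 200352 in replicate 2, with 0.594. The first inside started at 210432 and 210425 and scored 0.898 and 0.546. At the centromere side the last inside ran from 22411439 to 22413531 in replicate 1 (0.898) and from 22459992 to 22461304 in replicate 2 (0.800). The first beyond the limit started at 22634785 in replicate 1 and 22634864 in replicate 2, with scores of 0.638 and 0.171.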

How the data were processed

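The authors deposited 1 list of regions of significant enrichment per ChIP replicate and 1 for the replicate set, with 1 score per region, on FlyBase r5, per the file headers and columns. Neither headers nor labels state the scale of the deposited score, the caller, its threshold or how the replicate set was made. The submitters' processing notes name Bowtie 0.12.7, a read aligner. Starts and ends are 1-based and both included. Covered bases were counted once where clusters overlapped. Gaps run from the end of a cluster to the start of the next. Depth is unknown, so no interval that needs it is given. Wilson intervals (95%) treat clusters as units. The interval functions were tested on simulated data. Regions were named by rule: the 10 longest and the 10 highest-scoring matched clusters, the 5 highest-scoring untouched clusters of each replicate, the 5 crowds with most clusters in replicate 1, the 5 longest empty stretches, the 3 densest windows and the clusters at both limits. Other regions in the text (the longest cluster of replicate 1, megabase bins, isolated loci) were chosen after their values were seen. The members and lists were chosen with earlier results of these data known. Python 3.11.15, numpy 2.4.6, pandas 2.3.3, scipy 1.17.1 and matplotlib 3.10.9 were used.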

Additional observations from a re-analysis of the deposited data

How the results depend on the processing

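No setting turned the coverage difference of 3L from 3R or X. That from 2L, 0.0029 points, became -0.20 with high-scoring clusters (upper 50% of scores in the whole list), -0.28 with clusters of at least 2 kb and, with 1 replicate left out, ranged from -0.15 to 0.16. The mean number of clusters, 584, became 233.5 with high-scoring clusters, 356 with at least 2 kb and 890 in the combined list. Coverage (5.56%) became 2.58%, 3.84% and 8.18% in the same order, median length (2055 bp) 2217, 2172 and 2011 bp, median gap (17466 bp) 57247, 31495 and 11083 bp, the number of clusters in crowds (43) 0, 5 and 203, and the densest window (18.8%) 10.6%, 14.4% and 26.4%. The combined list without clusters shorter than 1301 bp, an alternative chosen after seeing the data, gave 7.51%, 2067 bp, 12700 bp, 125 clusters in crowds and 24.6%. Merging within 1 kb gave a median length of 2078 bp and 28.5 clusters in crowds. Crowds depended on their definition: 8.5 clusters with gaps up to 5 kb, 159 with 20 kb, 170.5 with runs of 3 or more. With 1 replicate left out they held 22 to 64 clusters: 22 without replicate 1 and 64 without replicate 2. Empty stretches (50) numbered 31 in the combined list, 118 from 50 kb and 21 from 150 kb. The densest window was 23.2% covered at 100 kb and 11.5% at 500 kb. Recurrence in replicate 1 was 62.2% with 80% overlap, and in replicate 2 it was 96.7% with clusters of at least 2 kb. The causes were not tested, except that the definitions and length limits act by construction. The tolerance was 1.5 times for counts, 1 SD between replicates for other means (a narrow one for median length), the 95% Wilson interval for recurrence and shared bases, and the sign for differences between arms. Of 102 values, 63 stayed within it, among them shared bases (64.7% to 68.1% of those in either replicate) and all those with the proximal limit at 4 Mb. Some of the 63 were fixed in advance. With 2 replicates, leaving out 1 cannot move mean coverage, median length or median gap past 1 SD, so those values say nothing about stability. Of 18 named regions, 2 (from 13994170 and from 210432) were lost with high-scoring clusters. The 10 highest scorers could not be lost by that setting. Their lowest scores were 1.86 in replicate 1 and 1.18 in replicate 2, above the list medians of 0.719 and 0.717. Merging only adds bases, and every named matched cluster exceeded 2 kb in both replicates. The regions that stayed therefore say little about stability. Leaving out a replicate gives no value for shared bases and recurrence. No paired analysis was possible because ChIP and input share numbers but only the ChIP lists gave values; differences between arms were taken within each replicate. Unknown depth limits every statement about uncalled stretches.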

Other observations

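The highest scores of the combined list on euchromatic 3L belonged to clusters that neither replicate's list held. A cluster of 1005 bp from 7881104 to 7882108 scored 3.43 and one of 1007 bp from 13813084 to 13814090 scored 3.28, ranks 1 and 2 of 890. The first lay 10726 bp from the nearest cluster of either replicate. The second lay 80371 bp from it, inside the longest empty stretch. Another, of 1161 bp from 18508766 to 18509926, scored 1.59 at rank 19. These 3 were the only ones above 1 among the 219 combined clusters that touched neither replicate, whose median score was 0.341, and the next scored 0.529. All 3 are shorter than the shortest cluster of the replicate lists, 1301 bp. They were chosen after their values were seen, and whether length limits or something else kept them out of the replicate lists was not tested.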
